A study of Danio rerio with 10 samples.

Results

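Aromatase and the other enzymes that make, interconvert or inactivate steroid hormones were followed in sorted cells of the zebrafish (Danio rerio) pituitary. Genes were chosen by a name rule, which was set with earlier results of these data known. It took those named for aromatase (cyp19a1), the steroidogenic cytochromes P450 (cyp11, cyp17 and cyp21) and the hydroxysteroid dehydrogenases (hsd3b, hsd11b and hsd17b). It also took the steroid reductases (srd5a), the StAR lipid transfer proteins (star and stard with a number) and ferredoxin (fdx1). Of 14781 genes in the deposited table, 31 had such a name, and none of these was a cyp21 gene. Of the 31, 19 had enough counts to be tested and 12 did not, among them hsd11b1la, which had no count in any library. The study sorted cells by uptake of β-Ala-Lys-Nε-AMCA, a dipeptide carrying a blue fluorescent dye. Males of the TL strain aged 12 months were injected with 10 µl of it at 4.6 mM, and their pituitaries were taken 3 hours later as 5 pools of 7. Cells that had taken up the dye (AMCA-positive, which the labels call pituicytes) and cells that had not (AMCA-negative, called non-pituicytes) gave 5 libraries each, over 2 sorting experiments. Both groups came from injected fish, so the dye, the sex, the strain and the age were shared. The AMCA-negative group is a mixture of the remaining cells and not 1 cell type.

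Steroid hormones are made from cholesterol, which StAR brings into the mitochondrion and which the side chain cleavage enzyme Cyp11a1 turns into pregnenolone. Cyp17a1, 3β-hydroxysteroid dehydrogenases and 17β-hydroxysteroid dehydrogenases then lead to androgens, aromatase turns androgens into estrogens, and 5α-reductases turn testosterone into a stronger androgen. Teleost fish have an aromatase gene that works mainly in the ovary, cyp19a1a, and one that works mainly in the brain, cyp19a1b, whose expression in radial glia is high in adult fish and rises with estrogen. The product of hsd11b2 inactivates cortisol by turning it into cortisone, and so limits the access of glucocorticoid to its receptors. Pituicytes are the astroglia of the neurohypophysis, where hypothalamic axons release their hormones.

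Libraries held 4250948 to 6068781 counts. AMCA-positive libraries had at least 1 count for 11308 to 11817 genes and AMCA-negative libraries for 7079 to 9056, and the 10 most counted genes took 8.72 to 12.2% and 27.6 to 47.0% of counts. Levels are given as CPM, for which edgeR's TMM factors scaled each library, and 3 counts correspond to 0.443 to 0.845 CPM, depending on the library. Over all 10468 genes tested, edgeR called 16.2% higher and 6.56% lower in AMCA-positive cells at an adjusted p under 0.05. DESeq2's Wald test and voom called 3673 and 3283 genes in either direction. The marker counts below stand beside these shares. Of 20 radial glia and astroglia markers, 18 were tested and 14 were higher in AMCA-positive cells. Their summed level was 3770 to 7663 CPM against 340 to 1057 CPM, although gfap, the classical astroglial filament gene, stood at only 2.42 to 9.002 CPM against 0 to 0.200 CPM. Markers of other cells also moved with the groups. All 13 red cell markers were lower in AMCA-positive cells, with a summed level of 378 to 1225 CPM against 251254 to 603553 CPM, which was 22.7 to 40.6% of AMCA-negative counts. Leukocyte markers were higher for 10 of 15 tested (11085 to 30065 against 455 to 1928 CPM, with rag1 at 0 in AMCA-positive cells). So were 9 of 11 mural and fibroblast markers (553 to 1186 against 7.60 to 183 CPM, with pdgfrb at 0 throughout), 4 of 8 endothelial markers (63.3 to 93.2 against 0.735 to 30.3 CPM) and 4 of 7 epithelial markers (1422 to 3070 against 34.1 to 476 CPM). Of 10 endocrine cell markers 2 were higher by edgeR, 4 by DESeq2 and 1 by voom, while the summed endocrine levels overlapped at 8953 to 29649 against 3116 to 52445 CPM. The edgeR calls included the hormone precursor gene pomca at 2961 to 22505 CPM against 2.64 to 47.6 CPM. The call of pomca was kept whichever library was left out. It was lost with voom (log2 fold change 9.83, adjusted p = 0.475) and with plate 1 alone (adjusted p = 0.116 by edgeR). Of 7 neuronal markers tested 0 were called by edgeR, DESeq2 or voom, and 0 had an unadjusted p under 0.05, with avp and gap43 at 0 in AMCA-positive cells and oxt and gap43 at 0 in AMCA-negative cells. The part of these other cells in the differences described here was not tested, and in bulk samples fewer cells of a type and less RNA per cell cannot be told apart.

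The comparison asked which steroid enzyme genes mark the cells that had taken up the dye. Aromatase cyp19a1b, hsd11b2, hsd17b3, hsd17b7, hsd17b14 and srd5a2a were higher in AMCA-positive cells, and srd5a3 was lower (edgeR quasi-likelihood test that included plate, Benjamini-Hochberg adjustment over all genes tested, threshold 0.05, n = 5 per group). These 6 higher and 1 lower of 19 tested stand beside 16.2% of all 10468 genes tested called higher and 6.56% called lower. All AMCA-positive libraries lay above all AMCA-negative libraries for 7 of the 19 and below them for 1, beside 18.7% and 5.72% of all genes tested. The median log2 fold change was 2.09 over the 19 tested steroid enzyme genes and 0.69 over all genes tested, and 14 of the 19 had a positive value. In the authors' deposited table, 7 were higher and 1 lower at an adjusted p under 0.05 of the 23 steroid enzyme genes that had an adjusted p there, beside 22.3% higher and 8.31% lower of 11270 genes with an adjusted p. Their calls added hsd17b8 to the 7 listed above.

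**Figure D1:**
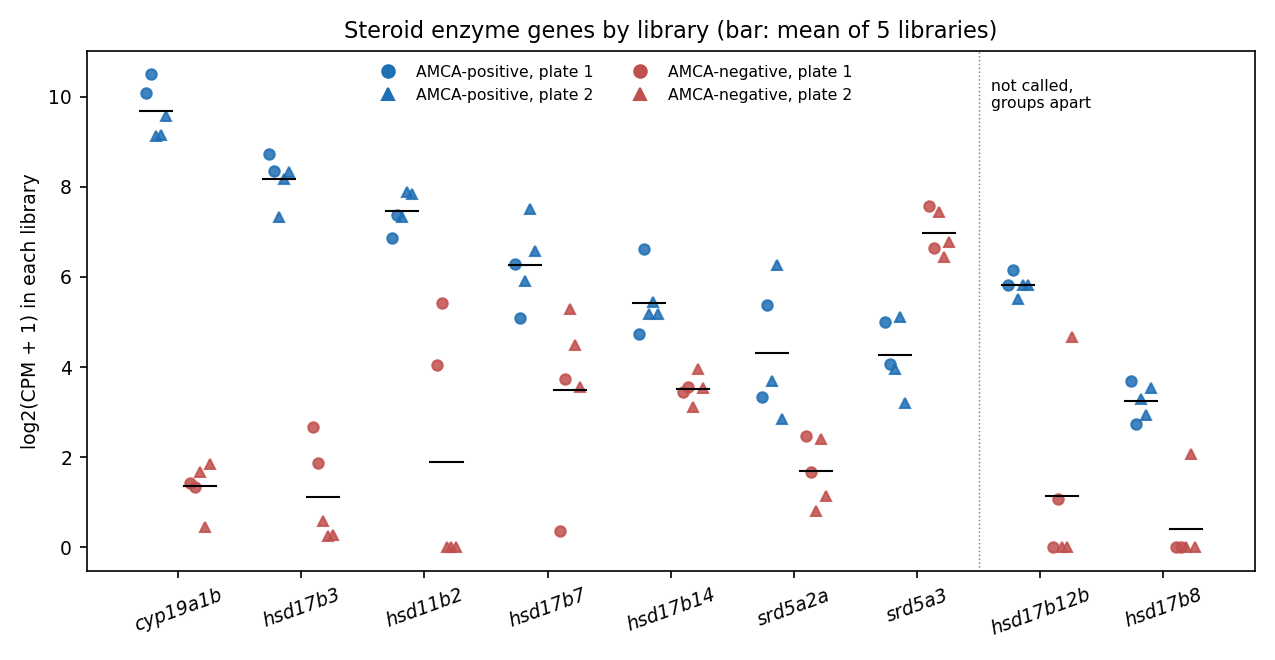
Level of 9 steroid enzyme genes in each of the 10 libraries, as log2(CPM + 1) on the vertical axis, with AMCA-positive libraries in blue, AMCA-negative libraries in red, plate 1 as circles, plate 2 as triangles and a bar at the mean of the 5 libraries. The groups lie apart for cyp19a1b, hsd17b3, hsd11b2, hsd17b14, srd5a2a and srd5a3, and for hsd17b12b and hsd17b8, which were not called, while hsd17b7 overlaps.

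Brain aromatase cyp19a1b, which turns androgens into estrogens, separated the groups with the largest log2 fold change of the 19 tested genes. AMCA-positive replicates 1 to 5 held 1085, 1444, 561, 572 and 755 CPM, and AMCA-negative replicates 1 to 5 held 1.69, 1.54, 2.21, 0.376 and 2.59 CPM. The lowest AMCA-positive library was thus far above the highest AMCA-negative one, where the level rested on 2 to 13 counts per library. The means were 884 ± 378 and 1.68 ± 0.842 CPM (SD, n = 5), and the log2 fold change was 8.93 ± 0.55 (SE; Benjamini-Hochberg adjusted p = 2.19e-06 by edgeR). On pooled counts the ratio was 532 (95% exact counting interval 386 to 755, which covers counting error only). Among AMCA-positive libraries the 2 on plate 1 were above the 3 on plate 2, with means of 1265 and 630 CPM. The difference between the groups was 9.41 on the log2 scale within plate 1 (adjusted p = 0.0108 by edgeR) and 8.51 within plate 2 (adjusted p = 0.00179), and the test of the difference between plates gave an adjusted p of 0.727. Over all AMCA-positive libraries, cyp19a1b and the summed astroglial level did not run in the same order. On plate 2 they did, with cyp19a1b at 561, 572 and 755 CPM and the sum at 3770, 7240 and 7663 CPM in replicates 3 to 5. On plate 1 they ran opposite, with cyp19a1b at 1085 and 1444 CPM and the sum at 5658 and 3971 CPM. A link between them was not tested.

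The ovarian aromatase gene cyp19a1a was near the limit of detection in both groups. It had 10 counts in AMCA-positive cells, all in replicate 1 (1.51 CPM), and 5 counts in AMCA-negative cells, in replicate 1 (0.282 CPM) and replicate 5 (0.798 CPM). It was too low to be tested, and at this depth no difference was detectable (pooled ratio 1.39, 95% exact counting interval 0.434 to 5.20).

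The cortisol-inactivating enzyme gene hsd11b2 was higher in AMCA-positive cells, but its AMCA-negative level differed between plates. AMCA-positive replicates 1 to 5 held 116, 165, 159, 236 and 228 CPM. AMCA-negative replicates 1 and 2, on plate 1, held 15.5 and 42.2 CPM, and replicates 3 to 5, on plate 2, had no count, where 3 counts would have been 0.735, 0.565 and 0.599 CPM. The groups did not overlap, and the mean was 181 ± 50.6 against 11.5 ± 18.4 CPM (SD, n = 5). The fitted log2 fold change was 7.49 ± 2.06 (SE; Benjamini-Hochberg adjusted p = 0.0233 by edgeR), whereas the ratio of pooled counts was 16.4 (95% exact counting interval 14.5 to 18.8).

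The plates gave different values for hsd11b2. On plate 1 the means were 141 and 28.8 CPM, and the log2 fold change of 2.14 ± 0.82 was not called (SE, n = 2 per group; adjusted p = 0.178 by edgeR). On plate 2 the mean was 208 CPM against no count, and a floor of 3 counts for those libraries together put the fold at 993 or more (n = 3 per group; adjusted p = 0.00168 by edgeR). The test of the difference between plates had an unadjusted p of 2.27e-05 and an adjusted p of 0.151 in edgeR, in which no gene of 10468 (0.0%) was called and 9.68% had an unadjusted p under 0.05. DESeq2's Wald test of the same term gave an adjusted p of 2.19e-08. The call of hsd11b2 was lost without AMCA-negative replicate 3, 4 or 5 (adjusted p = 0.0728, 0.0658 and 0.0629 by edgeR) and without the plate term (log2 fold change 3.97, adjusted p = 0.0769). AMCA-negative replicates 1 and 2 did not share a higher summed astroglial level, at 340 and 685 CPM beside 676 to 1057 CPM on plate 2. A marker within that sum, sox2, had 31.5 and 10.8 CPM there and no count in AMCA-negative replicates 3 to 5. It is named below because it was chosen for its likeness to hsd11b2 over these libraries, so its values carry no test. Between AMCA-negative replicates 1 and 2 its order was the reverse of that of hsd11b2. Replicate 2 had the highest summed mural and fibroblast level of its group (183 CPM) and replicate 1 the lowest (7.60 CPM). Whether such cells had a part in the hsd11b2 level was not tested.

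The 17β-hydroxysteroid dehydrogenase family had 10 members in the table, 8 of them tested and 3 of these higher in AMCA-positive cells. Beside them, 16.2% of all genes tested were called higher. The median log2 fold change was 2.35 over the 8 and 0.69 over all genes tested. The family is mixed: some members act on androgens and estrogens, others mainly on fatty acids or cholesterol precursors. Its clearest difference was in hsd17b3, whose product makes testosterone from androstenedione. AMCA-positive replicates 1 to 5 held 427, 324, 159, 287 and 319 CPM and AMCA-negative replicates 1 to 5 held 5.35, 2.64, 0.490, 0.188 and 0.200 CPM, with no overlap. The log2 fold change was 8.18 ± 0.76 (SE, n = 5 per group; adjusted p = 3.63e-05 by edgeR) and the pooled ratio 194 (95% exact counting interval 140 to 279). As for hsd11b2, the higher AMCA-negative values lay on plate 1, with a mean of 3.99 against 0.293 CPM on plate 2, and the test of the difference between plates gave an unadjusted p of 0.00293 and an adjusted p of 0.350. In the RefSeq annotation of another build (GRCz12tu) the span of hsd17b3 overlaps that of slc20a2, a phosphate transporter gene named here only for this overlap. It stood at 9.90 to 27.2 CPM where AMCA-negative libraries had no count, at least 119-fold higher (adjusted p = 0.00542 by edgeR), and reads of the pair cannot be told apart where they overlap, since no source used here says whether strand was used in counting. All 7 called genes overlap another gene in that annotation, as do 13 of all 31 steroid enzyme genes. The share over all genes was not counted, so nothing is concluded from this number. For 2 of the 7 the other gene is in the deposited table, at no count in any library for the partner of hsd17b14.

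The other members of the family called higher rested on less. For hsd17b7, which in mammals serves both cholesterol synthesis and estradiol formation, AMCA-positive libraries held 77.3, 32.9, 59.6, 182 and 94.2 CPM and AMCA-negative libraries 0.282, 12.3, 38.0, 21.5 and 10.8 CPM. AMCA-positive replicate 2 was below AMCA-negative replicate 3, and the log2 fold change was 2.60 ± 0.83 (SE, n = 5 per group; adjusted p = 0.0448 by edgeR). For hsd17b14, which in human cells oxidises estradiol among other substrates, AMCA-positive libraries held 25.4, 97.3, 35.02, 42.3 and 35.01 CPM and AMCA-negative libraries 9.85, 10.8, 7.60, 14.5 and 10.6 CPM. The groups did not overlap, AMCA-positive replicate 2 stood above the rest, and the log2 fold change was 2.09 ± 0.68 (adjusted p = 0.0450 by edgeR). The call of hsd17b14 was lost whichever library was left out (adjusted p = 0.0509 to 0.213), and that of hsd17b7 was kept only without AMCA-negative replicate 1 or 3.

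A pair of fatty acid enzymes of the family had groups that did not overlap and yet were not called. For hsd17b12b, a paralog of the fatty acid elongation enzyme HSD17B12, AMCA-positive libraries held 55.2, 70.0, 44.8, 55.4 and 55.8 CPM and AMCA-negative libraries 0, 1.098, 0, 0 and 24.3 CPM. Its log2 fold change was 4.08 ± 1.79 (SE, n = 5 per group; adjusted p = 0.138 by edgeR) and, without AMCA-negative replicate 5, 8.06 (adjusted p = 0.00443). For hsd17b8, a partner in mitochondrial fatty acid synthesis in human cells, AMCA-positive libraries held 12.0, 5.63, 8.87, 6.71 and 10.6 CPM, and AMCA-negative libraries had a count only in replicate 4, at 3.20 CPM. Its log2 fold change was 4.35 ± 1.73 (adjusted p = 0.102 by edgeR) and, without that replicate, 8.54 (adjusted p = 0.00838). The second copy, hsd17b12a, overlapped between the groups at 1.65 to 22.0 against 0 to 102 CPM, and its highest value lay in AMCA-negative replicate 5, the same library that was high for hsd17b12b. No source used here says how reads that fit both copies were counted. The mitochondrial enzyme gene hsd17b10 (26.3 to 45.8 against 0 to 63.0 CPM) and the peroxisomal enzyme gene hsd17b4 (3.03 to 6.21 against 0 to 16.6 CPM) also overlapped and were not called (adjusted p = 0.837 and 0.952 by edgeR). The estradiol-forming hsd17b1, with 13 and 23 counts in all, and the estradiol-oxidising hsd17b2, with 14 and 2, were too low to be tested.

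**Figure D2:**
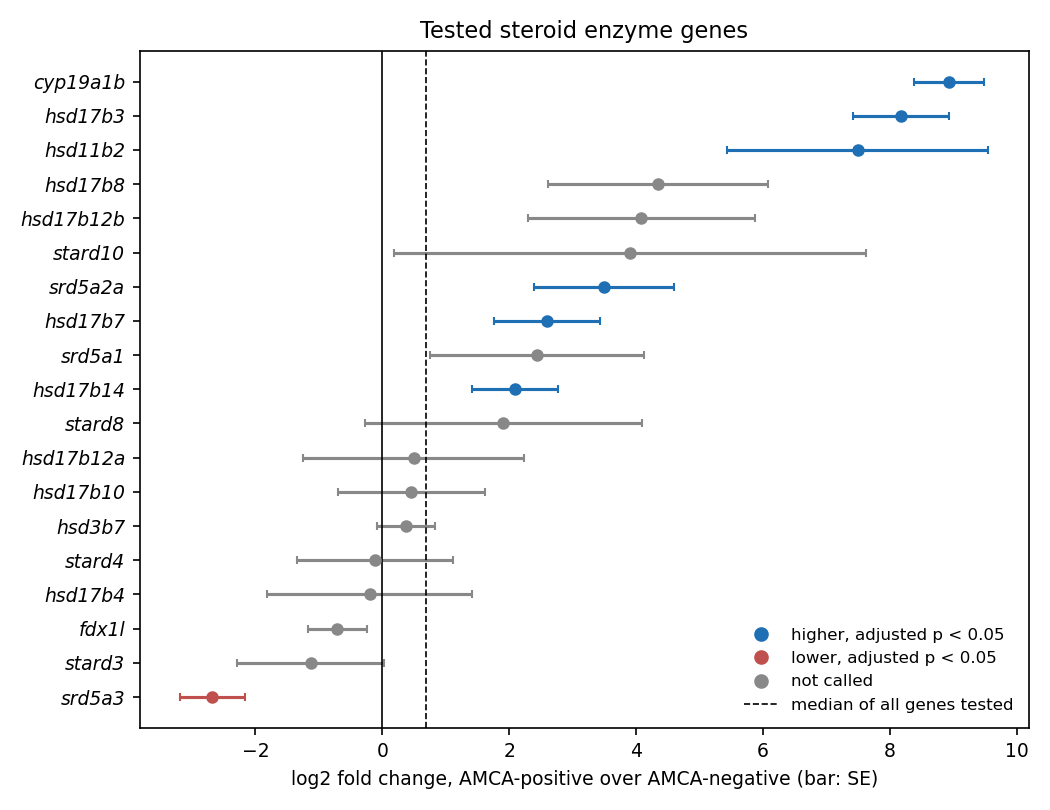
Log2 fold change of AMCA-positive over AMCA-negative libraries for the 19 tested steroid enzyme genes, with the SE as a bar, blue and red for genes called higher and lower, and a dashed line at the median of all genes tested (0.69). Aromatase cyp19a1b, hsd17b3 and hsd11b2 lie farthest to the right, and srd5a3 is the only gene called lower.

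Of the steroid reductases, srd5a2a and srd5a3 were called in opposite directions. The gene srd5a2a, a paralog of the 5α-reductase that makes dihydrotestosterone, stood at 9.08, 40.4, 12.0, 76.3 and 6.15 CPM in AMCA-positive and at 4.504, 2.20, 0.735, 4.33 and 1.197 CPM in AMCA-negative replicates 1 to 5. The groups did not overlap, but replicates 2 and 4 carried most of the AMCA-positive level. The log2 fold change was 3.49 ± 1.1 (SE, n = 5 per group; adjusted p = 0.0419 by edgeR), and the call was kept only without AMCA-negative replicate 1 when single libraries were left out. Its second copy srd5a2b had 23 counts in AMCA-positive replicate 3, 22 in replicate 5 and none elsewhere, at least 10.45-fold higher over the group, and was not tested. The isoform gene srd5a1 overlapped at 0.887 to 6.66 against 0 to 5.08 CPM (adjusted p = 0.371 by edgeR).

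The lower gene, srd5a3, which in mammals also reduces polyprenol to dolichol for protein glycosylation, stood at 31.2, 15.7, 14.5, 33.6 and 8.20 CPM in AMCA-positive and at 191, 99.5, 174, 85.6 and 109 CPM in AMCA-negative replicates 1 to 5. All AMCA-positive libraries were below all AMCA-negative ones, with means of 20.6 ± 11.1 and 132 ± 47.3 CPM (SD, n = 5). The log2 fold change was -2.68 ± 0.51 (SE; adjusted p = 0.00424 by edgeR), and the gene was called lower whichever library was left out. The 2 AMCA-negative libraries with the most srd5a3, replicates 1 and 3, also had the highest summed red cell level, at 324631 and 603553 CPM. Between these 2 the order was reversed, as it was between replicates 2 and 5, with red cell sums of 292378 and 260816 CPM. Both levels were divided by the same scaled library size, and a link was not tested.

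The first steps of steroid synthesis were at the limit of detection. For star, AMCA-positive replicates 2, 3 and 4 had 24, 6 and 3 counts (3.97, 0.887 and 0.458 CPM) and the others none, and AMCA-negative cells had 1 count in all (pooled ratio 23.0, 95% exact counting interval 3.85 to 935). For cyp11a1, AMCA-positive replicate 5 had 28 of the 29 counts (4.42 CPM), and AMCA-negative cells had 1 count (pooled ratio 20.2, interval 3.35 to 825). Both intervals cover counting error only and not the spread between libraries, and most counts of each gene came from 1 library. The androgen pathway gene cyp17a1 had 17 and 15 counts in AMCA-positive and AMCA-negative cells, at up to 0.739 and 2.07 CPM. Its relative cyp17a2, whose product in fish serves the making of cortisol, had 1 count and 20 counts, all 20 in AMCA-negative replicate 1. The 11β-hydroxylase gene cyp11c1 and hsd3b2, of an enzyme class needed for most active steroids, had 1 count each, both in AMCA-positive cells, and the mitochondrial ferredoxin gene fdx1b had 4. None of these was tested. Transcript lengths were not used here, so levels are compared between groups and not between genes.

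Other members of these name groups showed no call. The gene hsd3b7, whose mammalian product serves bile acid synthesis, overlapped at 217 to 627 against 83.9 to 577 CPM, and its log2 fold change was 0.38 ± 0.46 (SE, n = 5 per group; adjusted p = 0.638 by edgeR). The ferredoxin gene fdx1l, called fdx2 in RefSeq, which in mammals serves iron-sulfur cluster assembly, stood at 32.4 to 65.9 against 32.1 to 118 CPM (log2 fold change -0.71 ± 0.47, adjusted p = 0.347). Of the StAR family, the name rule took 5 members, of which 4 were tested. By edgeR 0 of the 4 were called and 0 had an unadjusted p under 0.05, beside 22.7% of all genes tested called in either direction. DESeq2's Wald test called stard10 (adjusted p = 0.0158) and voom called 0, beside 3673 and 3283 of all 10468 genes tested. For the cholesterol transfer genes stard3 and stard4 the adjusted p was 0.569 and 0.964, and for stard8 it was 0.614. The phospholipid transfer gene stard10 stood at 2.12 to 11.4 CPM in AMCA-positive libraries, while AMCA-negative libraries had 64.7 CPM in replicate 1, 0.220 CPM in replicate 2 and no count in the others. Its log2 fold change was 3.91 ± 3.72 (adjusted p = 0.536 by edgeR) with all libraries, and 6.06 (adjusted p = 0.0197) without AMCA-negative replicate 1.

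**Figure D3:**
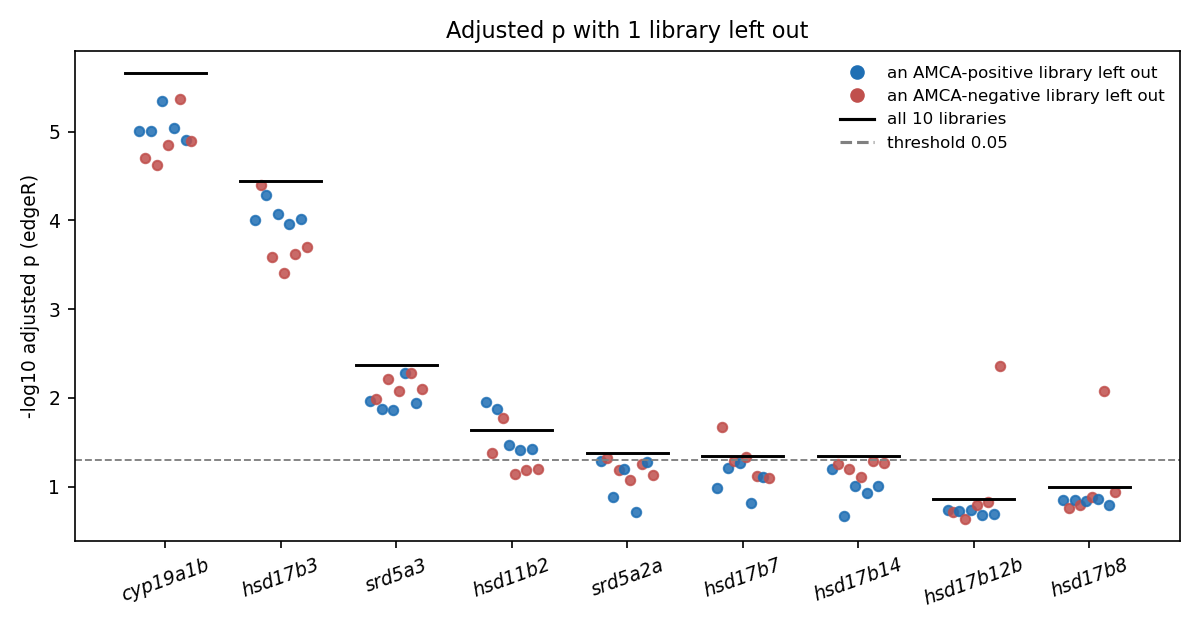
Adjusted p of edgeR, as -log10, for 9 steroid enzyme genes with 1 library left out at a time, with a bar for all 10 libraries and a dashed line at the threshold of 0.05. Genes cyp19a1b, hsd17b3 and srd5a3 stay above the line in all 10 cases, hsd11b2 in 7, hsd17b7 in 2, srd5a2a in 1 and hsd17b14 in 0, and hsd17b12b and hsd17b8 rise above it in 1 case each.

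Genes of the rest of the pathway were taken from lists. Of 15 steroid receptors and membrane steroid receptors, 10 were tested, 0 were higher and 2 were lower in AMCA-positive cells by edgeR, beside 16.2% and 6.56% of all genes tested, with a median log2 fold change of -0.80 beside 0.69 over all genes tested. DESeq2's Wald test called 0 higher and 3 lower, adding ar, beside 3673 of all 10468 genes tested called in either direction. Voom called 1 higher and 2 lower, adding esr2a, beside 3283 of all genes tested. The edgeR test gave an unadjusted p under 0.05 to 3, of which 0 were higher. The glucocorticoid receptor gene nr3c1 stood at 30.8 to 98.1 CPM in AMCA-positive and 105 to 217 CPM in AMCA-negative libraries, without overlap, and its log2 fold change was -1.27 ± 0.40 (SE; adjusted p = 0.0397 by edgeR). The call of nr3c1 was kept in 4 of the 10 cases with a library left out and lost with DESeq2 size factors (log2 fold change -1.12, adjusted p = 0.0631). The membrane progestin receptor gene paqr7a stood at 2.27 to 7.39 against 4.19 to 131 CPM (-3.63 ± 1.02, adjusted p = 0.0263), and its call was kept in 6 of the 10 cases.

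Receptors for the products of aromatase were present in both groups, and of esr1, esr2a and esr2b 0 were called by edgeR, where 0 had an unadjusted p under 0.05, and 1 by voom, esr2a as higher (log2 fold change 4.46, adjusted p = 0.0253). The estrogen receptor gene esr1 stood at 20.03 to 57.8 against 0.845 to 176 CPM, esr2a at 7.10 to 14.8 against 0 to 21.6 CPM, and esr2b at 14.8 to 38.6 against 0 to 42.2 CPM (adjusted p = 0.595, 0.493 and 0.770 by edgeR). The androgen receptor gene ar stood at 3.84 to 19.2 against 7.47 to 217 CPM (adjusted p = 0.127), the progesterone receptor gene pgr at 25.6 to 39.4 against 33.3 to 89.5 CPM (adjusted p = 0.284), and the mineralocorticoid receptor gene nr3c2 at 3.14 to 20.2 against 0 to 92.2 CPM (adjusted p = 0.692). The membrane-associated progesterone receptor component gene pgrmc1 stood at 152 to 408 against 0 to 155 CPM (adjusted p = 0.197). With 1 library left out, pgrmc1 was called higher without AMCA-negative replicate 1 (log2 fold change 1.68, adjusted p = 0.0284), esr2a higher without AMCA-negative replicate 4 (7.03, adjusted p = 0.00731) and ar lower without AMCA-negative replicate 2 (-2.57, adjusted p = 0.0446). These groups overlapped, and for nr3c2 3 of the 5 AMCA-negative libraries had no count.

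Of 9 glucocorticoid target genes tested, 3 were called, all lower in AMCA-positive cells, beside 6.56% of all genes tested called lower and 16.2% called higher, with a median log2 fold change of -0.58 beside 0.69 over all genes tested. The metallothionein gene mt2 was lower, at -3.40 ± 0.73 on the log2 scale (4.30 to 9.46 against 12.7 to 248 CPM; SE, n = 5 per group; adjusted p = 0.00754 by edgeR) and the clock gene per1b at -2.24 ± 0.47 (19.7 to 83.3 against 132 to 382 CPM, adjusted p = 0.00657). Both were without overlap. The transcription factor gene klf9 was at the threshold (-1.37 ± 0.45, adjusted p = 0.0499), overlapped, kept its call in 2 of the 10 cases with a library left out and was not called with DESeq2 size factors (adjusted p = 0.0820). The receptor co-chaperone gene fkbp5 stood at 361 to 1202 against 878 to 1461 CPM and was not called (adjusted p = 0.104). Without AMCA-positive replicate 4, fkbp5 was called lower (log2 fold change -1.14, adjusted p = 0.0183 by edgeR). The block of neighbouring wells also called it lower (-0.905, adjusted p = 0.0404 by edgeR).

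Enzymes that make steroids water-soluble by adding sulfate or glucuronic acid were called by edgeR for 4 of 10 tested, all higher, beside 16.2% of all genes tested. DESeq2's Wald test called 6 higher and 1 lower, and so did voom, beside 3673 and 3283 of all 10468 genes tested in either direction. The median log2 fold change was 4.61, or 4.08 with genes that had no AMCA-negative count set at their lower bound. The summed level of the list was 287 to 392 against 115 to 177 CPM. The sulfotransferase gene sult1st1 stood at 37.2 to 156 CPM against 2 counts in all, a pooled ratio of 1013 (95% exact counting interval 280 to 8368; adjusted p = 6.21e-05 by edgeR). The glucuronosyltransferase gene ugt2a1 stood at 21.8 to 42.3 CPM where AMCA-negative libraries had none, at least 245-fold higher (adjusted p = 0.00269), and sult1st6 at 8.63 to 44.0 CPM where AMCA-negative libraries had none, at least 173-fold higher (adjusted p = 0.00479). The fourth, sult2st2, stood at 0.151 to 6.56 CPM against 3 counts in all (adjusted p = 0.0438 by edgeR). With a library left out, sult2st2 was tested in 8 cases and kept its call in 3 (adjusted p up to 0.0989, without AMCA-negative replicate 1). Its call was also lost with voom (adjusted p = 0.224). Zebrafish cytosolic sulfotransferases also act on many substrates other than steroids.

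On the side of cholesterol supply, 1 of 9 delivery genes tested was called by edgeR, beside 22.7% of all genes tested called in either direction. Their median log2 fold change was 0.43 beside 0.69 over all genes tested. DESeq2's Wald test called 2 higher and 1 lower, and voom called 1 higher and 1 lower. Of all 10468 genes tested, these tools called 3673 and 3283 in either direction. The gene called by edgeR was tspo, as lower, which encodes a protein of the outer mitochondrial membrane that binds cholesterol. It stood at 134, 169, 139, 194 and 126 CPM in AMCA-positive and at 2781, 2117, 3599, 1669 and 2075 CPM in AMCA-negative replicates 1 to 5, with a log2 fold change of -4.01 ± 0.27 (SE; adjusted p = 3.40e-06 by edgeR). The order of the 5 AMCA-negative libraries by tspo was the order by summed red cell level. Both levels were divided by the same scaled library size, so the orders are not independent, and a link was not tested. Of 4 electron partner genes tested 1 was higher by edgeR, beside 16.2% of all genes tested. It was the pentose phosphate gene pgd, which yields NADPH (121 to 319 against 1.96 to 45.5 CPM, log2 fold change 3.23 ± 0.68, adjusted p = 0.00677 by edgeR). DESeq2's Wald test called 2 of the 4 higher and voom called 1, beside the 3673 and 3283 of all genes tested given above. Of 6 steroidogenic regulators tested 0 were called by edgeR, DESeq2 or voom, and 0 had an unadjusted p under 0.05. The steroidogenic factor gene nr5a1a stood at 32.5 to 59.6 against 39.7 to 78.3 CPM (adjusted p = 0.506).

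The genes whose pattern over the 10 libraries was nearest to that of the lead genes were found by the root-mean-square difference of log2(CPM + 1) values, each centred on its own mean. Nearest to cyp19a1b were ms4a17a.9 (0.436), si:ch211-251b21.1 (0.462), the chemokine gene ccl34a.4 (0.495), the secreted WNT modulator gene sfrp5 (0.527) and the gap junction gene cx43 (0.555), of which cx43 is among the astroglial markers. Nearest to hsd11b2 were the progenitor transcription factor gene sox2 (0.813), the matrix gene tgfbi (0.858), the glycolysis gene gapdh (0.911), tmem176 (0.936) and the annexin gene anxa3b (0.940). Here sox2 is among the astroglial markers. Like hsd11b2, these 5 had their highest AMCA-negative values in replicates 1 and 2, as sox2 did at 31.5 and 10.8 CPM with no count in replicates 3 to 5. Since these genes were chosen for their likeness, their values carry no test.

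**Figure D4:**
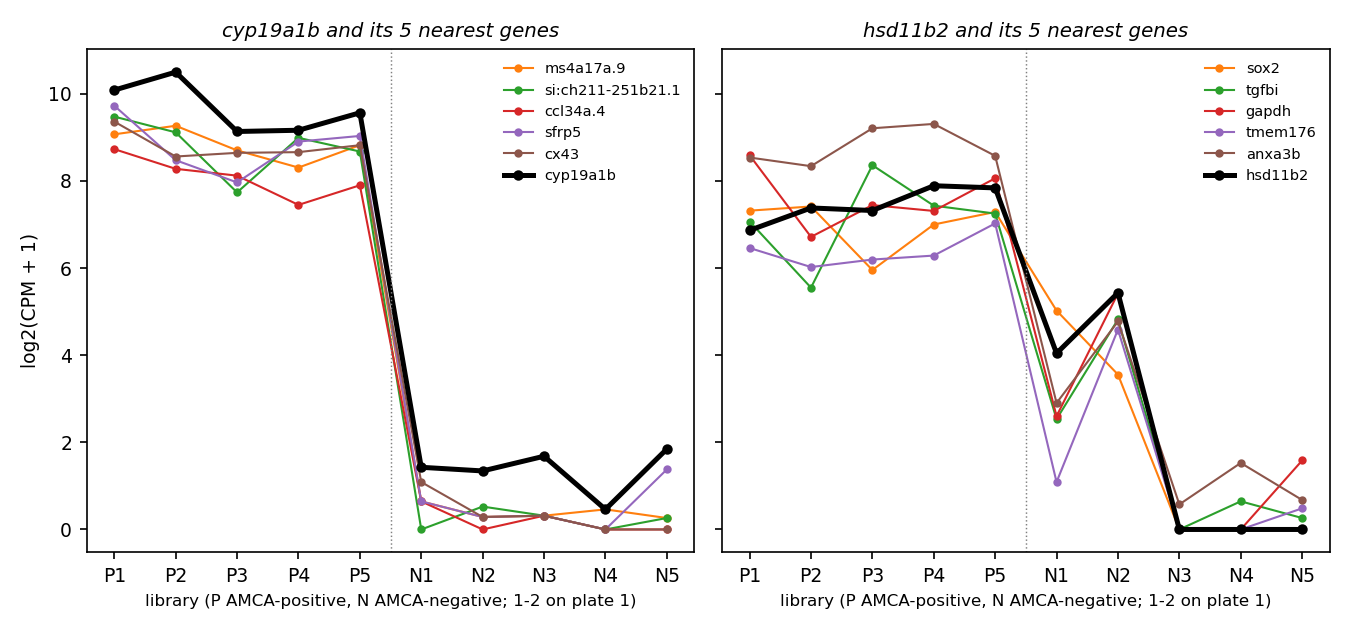
Level, as log2(CPM + 1), of cyp19a1b (left, black) and hsd11b2 (right, black) in each library with the 5 nearest genes in colour, AMCA-positive replicates 1 to 5 as P1 to P5 and AMCA-negative replicates as N1 to N5. The cyp19a1b group is low in all AMCA-negative libraries, while the hsd11b2 group keeps a level in N1 and N2 and is lowest in N3 to N5.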

How the data were processed

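RNA was measured in 10 libraries, grouped by the dye label of each sample. Per the labels, cDNA was amplified with 15 cycles from cells sorted in 2 experiments. The titles give the plate: plate 1 holds replicates 1 and 2 of each group, and plate 2 holds replicates 3 to 5. The labels give the sorting experiments the same numbers of samples per group as the plates. No label ties a plate to a sorting experiment, so plate and sort cannot be told apart here. Replicates are numbered by sample order, and equal numbers do not stand for known pairs. No label says which libraries came from the same pool. Whether libraries of both groups share a pool is thus not known, and the main test used no pairing.

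The authors deposited raw counts per gene and library, per the file headers, with a normalized signal, in which each library's counts are divided by 1 size factor. Per the submitters' processing notes, the build was danRer10 and the tools were HTSeq, TopHat2 2.0.13, DESeq2 and cutadapt, with roles and settings not stated. The authors' deposited log2 fold changes, score columns and p-value columns compare the groups, and only their adjusted calls were used, as counts beside those found here.

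The test was edgeR 4.0.16's two-sided quasi-likelihood F test with robust fitting, in R 4.3.3, on counts scaled by TMM and filtered by filterByExpr, with terms for plate and group. Its p-values were adjusted by Benjamini-Hochberg over 10468 genes at 0.05. SE is the log2 fold change divided by the root of F. Ratios of pooled counts carry 95% exact intervals (scipy 1.17.1), and a fold against no count uses a floor of 3 counts over the group. Reads carry no molecular identifiers, so intervals and floors cover counting error only. Scripts were tested on simulated data.

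The members and the 16 gene lists (220 entries, 26 not found and 10 found by synonym) were chosen with earlier results of these data known. Every gene of the name rule may be named, with up to 4 tested genes of each list by smallest adjusted p, all steroid receptors, the 5 nearest genes of each lead gene and marker checks; slc20a2 and markers at 0 in a group fall outside this rule. All 31 names matched RefSeq, 29 by current symbol. Alternatives were DESeq2 1.42.0 size factors and Wald test, limma 3.58.1 voom with quality weights, TMM without red cell and hormone genes, every gene with a count, genes at 10 CPM in 5 libraries, a model without plate, a block of neighbouring wells, plate 1 or plate 2 alone and each library left out in turn. The setting of TMM without red cell and hormone genes removed them by listed name, and red cell genes found only by synonym stayed in. Leaving out negative replicates 1 and 3 together was added after seeing the data. Sequences, coordinates and promoter motifs are not analysed here.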

Additional observations from a re-analysis of the deposited data

Results flagged for a closer look

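Over 38 groups of 5 libraries examined for a library far from the others, 7 stood out by Dixon's test of the gap to the nearest library (critical value 0.710 of the group's range). Chance gives about 1 in 20 only for normally distributed values. That rate does not hold for groups in which the other libraries had no count or nearly none. In AMCA-negative replicate 5, hsd17b12a stood at 102 CPM with the others at 0 to 10.8 CPM, and hsd17b12b at 24.3 CPM with the others at 0 to 1.098 CPM. In AMCA-negative replicate 4, hsd17b8 stood at 3.20 CPM with no count in the others, and srd5a1 at 5.08 CPM with the others at 0 to 0.220 CPM. AMCA-negative replicate 1 held 64.7 CPM of stard10, with the others at 0 to 0.220 CPM, and AMCA-negative replicate 3 held 26.96 CPM of stard8, with the others at 0 to 1.88 CPM. The remaining case was AMCA-positive, hsd17b14 at 97.3 CPM in replicate 2 with the others at 25.4 to 42.3 CPM. Of the 7 cases, 6 lay in AMCA-negative libraries. Where the other libraries had no count, as for hsd17b8, any count passes by construction, so no conclusion is drawn from this number.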

How the results depend on the processing

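Brain aromatase cyp19a1b was called higher under all 11 alternatives and whichever library was left out (log2 fold change 8.51 to 9.41 and 8.57 to 9.25), and hsd17b3 and srd5a3 lost their calls only with plate 1 alone (6.33 and -2.87, adjusted p = 0.0618 and 0.117). Steroid enzyme genes called higher numbered 3 to 6 with a library left out, 3 with the filter of 10 CPM and 1 with plate 1 alone, where 0 were called lower. Over all genes, 2711 were higher with DESeq2's Wald test, 676 with the filter of 10 CPM, and 29 with plate 1 alone, where 34 were lower. The plate by group test called 535 genes with DESeq2 and 0 to 189 with a library left out, 189 of them without AMCA-negative replicate 2, when hsd11b2 was among them (adjusted p = 0.0218). DESeq2 size factors moved the median of all genes from 0.69 to 0.85. Without AMCA-negative replicates 1 and 3, hsd11b2 was not called (5.51, adjusted p = 0.104). DESeq2's Wald test added hsd17b8 and stard10 to the calls, voom added hsd17b8 and hsd17b12b and lost hsd17b14, hsd17b7 and srd5a2a (adjusted p = 0.132, 0.0893 and 0.132), and srd5a1 was called without AMCA-negative replicate 4 (5.80, adjusted p = 0.0138). The replicate block of neighbouring wells gave 1977 calls in place of 2380, added hsd17b8 and hsd17b12b and lost hsd17b14, hsd17b7 and srd5a2a (adjusted p = 0.158, 0.0892 and 0.109); deviations within a block correlated by 0.0024 to 0.042, and the labels do not say whether neighbouring wells hold cells of 1 pool. Genes without a call changed sign: stard4 (0.0475 with DESeq2 size factors, 0.0480 with its Wald test, 1.21 voom, 1.06 block, 0.20 without AMCA-negative replicates 1 and 3, -0.56 to 0.79 with a library left out), hsd17b4 (2.35 voom, 3.47 block, 0.0685 plate 2, -0.66 to 2.61), nr3c2 (3.26 voom, 3.59 block, -1.86 to 2.31), hsd17b12a (-1.22 no plate term, -1.41 plate 2, -0.85 without both replicates, -0.48 to 2.30), stard10 (-1.34 no plate term, -3.94 plate 1), esr1 (0.0515 plate 1), esr2b (-0.19 plate 2), stard8 (-0.17 plate 2) and hsd3b7 (-0.00989 to 0.59). The cause was not tested. Depth limits the genes under 0.443 to 0.845 CPM, and both groups of 2 on plate 1 limit that plate.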

Other observations

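Of 13 cholesterol synthesis genes tested, AMCA-positive cells had more of 2 and less of 1 by edgeR, beside 22.7% of all genes tested called in either direction. The median log2 fold change of the 13 was 2.53 beside 0.69 over all genes tested. DESeq2's Wald test called 4 of the 13 higher and 1 lower, and voom called 6 higher and 1 lower. Of all 10468 genes tested, these tools called 3673 and 3283 in either direction. The sterol reductase gene tm7sf2 stood at 7.45 to 25.2 CPM where AMCA-negative cells had no count, so at least 129-fold higher (n = 5 per group; adjusted p = 0.00562 by edgeR). The mevalonate pathway kinase gene pmvk stood at 3.10 to 12.4 CPM against 2 counts in all (pooled ratio 75.9, 95% exact counting interval 20.8 to 631; adjusted p = 0.00777 by edgeR). The farnesyl diphosphate synthase gene fdps was lower, at 7.54 to 30.7 against 30.4 to 133 CPM, with a log2 fold change of -1.98 ± 0.60 (SE; adjusted p = 0.0341 by edgeR), and overlapped between the groups. The call of fdps was kept in 2 of the 10 cases with a library left out (adjusted p up to 0.0781) and lost with the block of neighbouring wells and with plate 1 or plate 2 alone (adjusted p = 0.117, 0.367 and 0.107).

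Of 7 other steroid-converting enzyme genes tested, 2 were called by edgeR, both higher, beside 16.2% of all genes tested. The median log2 fold change was 0.46 beside 0.69 over all genes tested. DESeq2's Wald test called 2 higher and 1 lower, and voom called 1 higher and 0 lower. Of all 10468 genes tested, the 2 tools called 3673 and 3283 in either direction. The aldo-keto reductase gene akr1b1 stood at 16.8 to 61.5 against 0 to 1.98 CPM (log2 fold change 7.06 ± 1.47, n = 5 per group; adjusted p = 0.00646 by edgeR). The last enzyme gene of cholesterol synthesis, dhcr7, had 0 to 11.9 CPM where AMCA-negative libraries had none, at least 37.4-fold higher (adjusted p = 0.0427 by edgeR). With a library left out, dhcr7 was tested in 8 cases and kept its call in 1 (adjusted p up to 0.0825, without AMCA-positive replicate 1). Its call was also lost with voom (adjusted p = 0.181) and with the block of neighbouring wells (adjusted p = 0.0561 by edgeR). The cholesterol 24-hydroxylase genes cyp46a1.1 and cyp46a1.2, whose mammalian relative acts in brain cholesterol turnover, stood at 1.99 to 5.52 against 2.20 to 78.7 CPM and at 33.1 to 63.7 against 54.6 to 389 CPM, and were not called (adjusted p = 0.0866 and 0.0548 by edgeR). Under other settings cyp46a1.2 was called lower: by DESeq2's Wald test (adjusted p = 0.0332), with the filter of 10 CPM (0.0413), with no plate term (0.0363) and without AMCA-negative replicate 2 or 4 (0.0458 and 0.0270). The call of cyp46a1.1 as lower was made without AMCA-negative replicate 4 or 5 (adjusted p = 0.0418 and 0.0389).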
